A study of Mus musculus with 6 samples.

Results

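The 9 Krüppel-like factor genes Klf2, Klf3, Klf4, Klf6, Klf7, Klf10, Klf11, Klf12 and Klf13 were examined in thymic iNKT1 cells. The cells came from control mice and from mice in which a TGF-beta receptor gene was targeted. The Klf genes were taken by symbol from a table of 17985 genes, and each symbol matched 1 row. iNKT1 cells are the T-bet-expressing, interferon-producing subset of invariant natural killer T cells. The control group (Ctrl) came from C57BL/6 mice with a Tbx21-driven Cre transgene and a Rosa26 YFP reporter that Cre switches on (genotype Tbx21CreTg;Rosa26-LSL-YFP+/+). The conditional knockout group (cKO) carried these and, in addition, loxP-flanked Tgfbr2 (Tgfbr2F/F), which encodes a TGF-beta receptor chain. Each group had 3 untreated libraries. Cre and the reporter were thus present in both groups, deletion was limited to cells that had switched on Tbx21, and the ages of the mice were not given in the sources used here. Nothing in the labels says whether the libraries of a group came from separate mice, so p-values measure only the spread between these libraries, which may be technical.

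Krüppel-like factors are zinc-finger transcription factors that bind CACCC and GC-rich elements, and related members can activate or repress the same sites. In T cells Klf2 is known for maintaining quiescence and for switching on egress receptors such as S1pr1, and Klf3, a repressor that recruits CtBP proteins, is itself induced by other family members through CACCC boxes in its promoter. Klf10 and Klf11 were first described as TGF-beta-inducible early genes and act as repressors through Sin3 complexes.

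The upstream promoter sequences of Klf3 and Klf2 are shown because Klf3 had the largest difference between the groups and Klf2 is the member tied most closely to circulation. Each is the 250 bases before the RefSeq start site (build GRCm38.p6), written 5′ to 3′ on the gene's strand, with matches to CACCC on either strand in capitals. The Klf3 stretch is chr5:64803271-64803520, plus strand, and the Klf2 stretch is chr8:72318812-72319061, plus strand. Start sites differ between annotations: the deposited table starts Klf2 at 72319033, so the end of its stretch, with the marked match, lies inside the gene as counted. GENCODE M21 starts Klf3 at 64803388, inside its stretch. The CACCC matches at -120, -111 and -48 from the RefSeq start of Klf3 thus lie inside the GENCODE gene, as does a match at -89 to the GC box described below.
Klf3: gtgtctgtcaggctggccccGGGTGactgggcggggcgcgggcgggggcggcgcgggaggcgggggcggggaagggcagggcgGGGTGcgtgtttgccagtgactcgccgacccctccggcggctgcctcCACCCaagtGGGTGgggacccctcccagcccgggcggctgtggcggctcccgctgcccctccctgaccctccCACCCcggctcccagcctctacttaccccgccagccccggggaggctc
Klf2: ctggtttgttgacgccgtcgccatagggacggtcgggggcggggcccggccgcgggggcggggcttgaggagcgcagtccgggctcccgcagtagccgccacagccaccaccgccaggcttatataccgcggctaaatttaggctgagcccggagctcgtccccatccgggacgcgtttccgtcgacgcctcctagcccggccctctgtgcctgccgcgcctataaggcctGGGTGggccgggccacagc

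The Klf3 stretch held 5 matches to CACCC and the Klf2 stretch 1. Over the 32851 RefSeq promoter stretches of the same length, 52.0% held at least 1 match, the median was 1, and 0.667% held 5 or more. The GC box GGGCGG, searched on both strands, matched 6 times in the Klf3 stretch and 2 times in the Klf2 stretch, and at least once in 32.7% of all stretches. These stretches were GC-rich, at 78.4% GC for Klf3 and 71.2% for Klf2 against a median of 52.4%. A MEF2 site (CTA and TAG with 4 bases between them) matched once, 118 to 109 bases before the Klf2 start, and in 3.20% of all stretches. Neither the SMAD palindrome GTCTAGAC nor the forkhead site TGTTTAC matched in any of the 8 members with an entry, where 0.167% and 3.17% of all stretches hold them. Klf10 had no entry. The remaining members held between 0 matches to CACCC (Klf4, Klf6 and Klf11) and 3 (Klf7). None of these matches is shown to be a bound site.

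**Figure D1:**
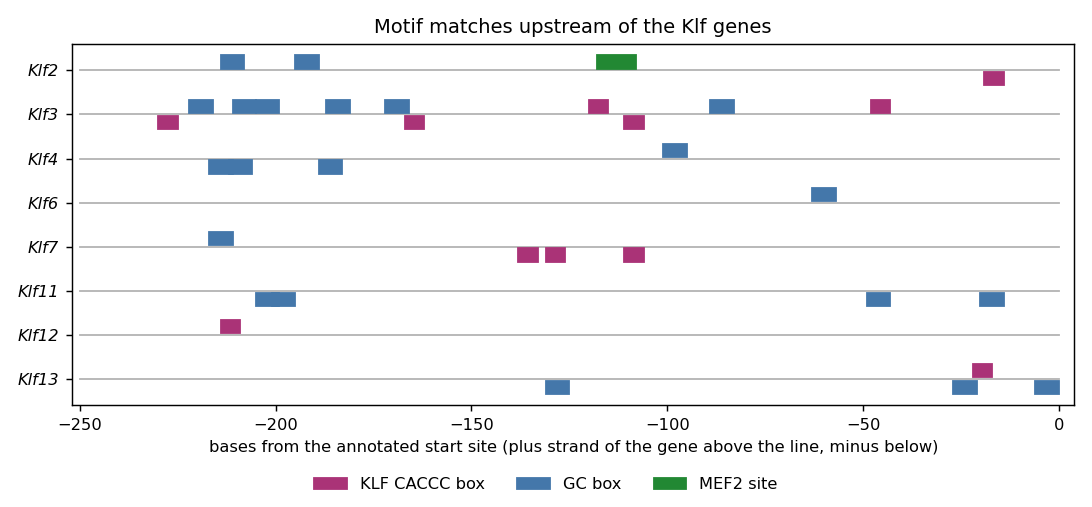
Matches to CACCC, the GC box GGGCGG and the MEF2 site in the 250 bases before the RefSeq start of the 8 Klf genes with an entry. The x axis is the distance from the start site in bases, and boxes above or below each line are on the gene's plus or minus strand. Klf3 carries 5 CACCC and 6 GC box matches, and the MEF2 match lies upstream of Klf2.

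The libraries held between 28832779 and 68092478 reads, so that 1 read was worth 0.0147 to 0.0347 CPM (a gene's reads relative to all reads of its library, on a fixed scale). Both replicate 3 libraries stood apart from the other 4: they listed 4406 and 4590 genes at 0, against 0 to 5 genes elsewhere, and the first principal component of log2(CPM + 1), with 85.1% of the variance, separated them. This difference was present once in each group. The targeted gene Tgfbr2 was at 461, 461 and 425 CPM in Ctrl against 289.8, 258 and 274 CPM in cKO, all 3 cKO libraries being lower. The iNKT1 markers Tbx21, Zbtb16, Cd3e, Cd3g, Il2rb, Ifng, Klrb1c and Cxcr3 were read in every library. Their summed levels were 6754 to 8654 CPM in Ctrl against 7196 to 9942 CPM in cKO. In the limma tests described below, 0 of these 8 genes had an adjusted p under 0.05, against 0.663% of all genes tested. With the replicate number as a block 1 did, Il2rb, higher in cKO (limma adjusted p 0.0166), against 2.87%. There 5 had an unadjusted limma p under 0.05, against 12.6%. By log2 difference 5 of the 8 were higher in cKO and 3 lower. Klrb1c was at 566, 180 and 703 CPM in Ctrl against 640, 870 and 1021 CPM in cKO.

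Levels were compared between members per kilobase of the gene length that the authors' deposited table gives. Klf2 was the most abundant, at 98.6 ± 41.6 CPM per kilobase (SD, n = 3) in Ctrl, above Klf6 in all 6 libraries. Klf6, a broadly expressed factor induced early on stimulation, was at 44.4 ± 4.48 and Klf3 at 40.6 ± 9.51 CPM per kilobase, and these levels overlapped. Klf10 followed at 23.0 ± 3.54 and Klf13, an activator of the chemokine gene Ccl5 in T cells, at 16.0 ± 3.52 CPM per kilobase. Klf13 was below Klf10 in 5 of the 6 libraries.

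A wide step separated these 5 genes from the other 4. Klf7, best known from axon outgrowth, was at 1.23 ± 0.233 CPM per kilobase in Ctrl, Klf11 at 1.04 ± 0.152, Klf12 at 0.884 ± 0.723 and Klf4, a factor of stem cell identity and T cell quiescence, at 0.278 ± 0.104. Each of these levels overlapped with the next in the order. The length used decides part of the order: per kilobase of GENCODE M21 exons, Klf3 was at 14.0 ± 3.28, below Klf13 at 17.9 ± 3.93 and Klf10 at 16.8 ± 2.58, and Klf12 was below Klf4. The leading places of Klf2 and Klf6 and the step down to Klf7 were the same with both lengths.

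The low group lay near the level of genes that the replicate 3 libraries list at 0. Those 4098 genes, listed at 0 in both replicate 3 libraries, had medians of 0.883 and 0.663 CPM per kilobase in Ctrl replicates 1 and 2, and of 0.994 and 0.571 in cKO replicates 1 and 2. Klf4 was below that median in each of these 4 libraries. In the replicate 3 libraries Klf4 had 54 reads in Ctrl and 36 in cKO, and Klf12 had 21 and 38 reads, so both were detected there. Klf7 had 504 and 549 reads there, and Klf11 292 and 148.

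**Figure D2:**
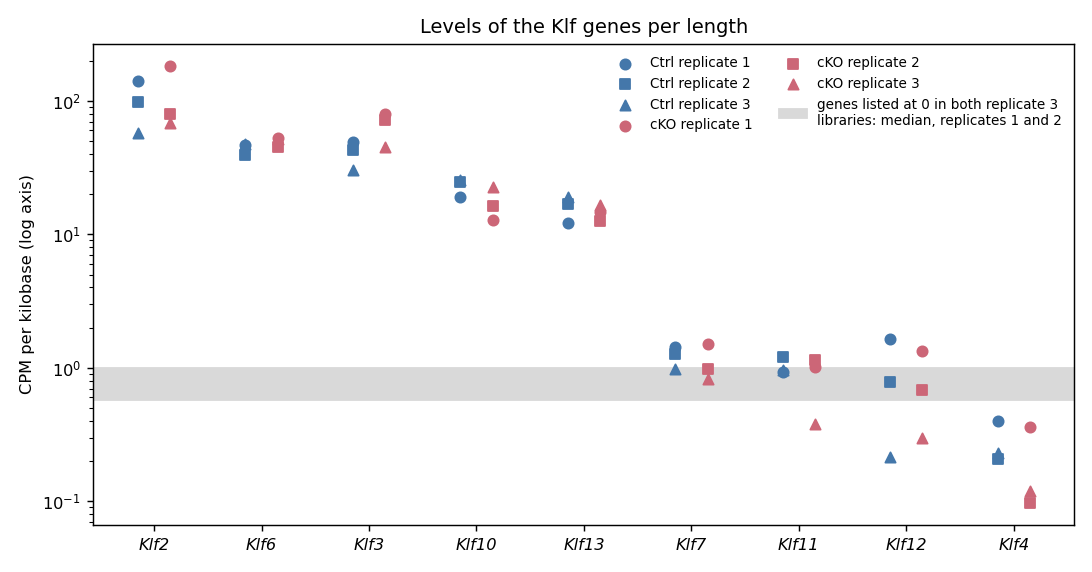
CPM per kilobase of deposited gene length on a log axis for the 9 Klf genes, ordered by their Ctrl mean, with 1 point per library. The grey band spans the medians, in the 4 libraries of replicates 1 and 2, of the 4098 genes listed at 0 in both replicate 3 libraries; Klf7, Klf11 and Klf12 lie in or near the band and Klf4 below it.

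Which Klf genes differed between cKO and Ctrl was tested with limma on log2(CPM + 1), with Benjamini-Hochberg adjustment over the 15691 genes averaging 1 CPM or more. All 9 members passed that filter. With group as the only term 0 of the 9 members had an adjusted p under 0.05, against 0.663% of all genes tested. An unadjusted limma p under 0.05 was found for 1 member, Klf3, against 6.02% of all genes. With the replicate number as a block, 1 of 9 passed, again Klf3, against 2.87% of all genes, and 2 had an unadjusted p under 0.05, against 12.6%. The levels of cKO and Ctrl did not overlap for 0 of the 9 members, against 11.0% of all genes. The median log2 difference of the members was -0.11, with 3 higher and 6 lower. That of all genes tested was -0.04, with 6426 higher and 9265 lower. In bulk RNA, fewer cells of a type and less RNA per cell cannot be told apart.

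Klf3 (ENSMUSG00000029178, chromosome 5, 64803523 to 64830129, plus strand) was the member with the largest difference. It was at 189.6, 165 and 117 CPM (Ctrl replicates 1 to 3) against 311, 281 and 176 CPM (cKO, same order). Replicate 3 was lowest in both groups, and cKO replicate 3 fell within the Ctrl range. Each cKO library was above the Ctrl library of the same number, at 164%, 170.1% and 149.9% of it. The means were 157 ± 36.8 CPM in Ctrl against 256 ± 71.2 CPM in cKO (SD, n = 3 each).

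The log2 difference of Klf3 was 0.68, with a 95% confidence interval of 0.065 to 1.30 without the block and a limma adjusted p of 0.716. With the replicate block the interval was 0.50 to 0.87 and the limma adjusted p 0.00235. Both of edgeR's quasi-likelihood fits gave a log2 difference of 0.73, with an adjusted p of 0.721 without the block (0.255% of all genes called) and 0.00102 with it (2.99%). DESeq2 called Klf3 both ways, with an adjusted p of 0.0393 without the block (4.36% called) and 1.87e-13 with it (5.33%). In replicates 1 and 2 alone the limma adjusted p was 0.00425, where 1.72% of genes were called, at a difference of 0.74, and replicate 3 by itself gave 0.58. The authors' deposited table gave Klf3 a log2 fold change of 0.76 with an adjusted p of 0.294, and 0 of the 9 members were under 0.05 there, against 0.801% of all its genes.

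The 5′ part of Klf3 overlaps an antisense transcript, Gm20033, over 404 exon bases in GENCODE M21, and the counting was not stated to use strand, so reads there cannot be told apart. Gm20033 itself was at 4.07, 4.42 and 0.831 CPM in Ctrl against 4.16, 2.76 and 0.940 CPM in cKO, far below Klf3. Of the 75-base stretches of Klf3 transcripts, 2.88% also occur in transcripts of other genes.

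Klf2 (ENSMUSG00000055148, chromosome 8, 72319033 to 72321656, plus strand) varied more within the groups than between them. It was at 260.2, 179.6 and 106 CPM (Ctrl replicates 1 to 3) against 338, 146 and 126 CPM (cKO, same order). Replicate 1 was highest and replicate 3 lowest in both groups, and the groups overlapped. The highest Ctrl library was 2.44 times the lowest and the highest cKO library 2.69 times the lowest, whereas the mean of cKO was 1.12 times that of Ctrl (203 ± 117 against 182 ± 76.9 CPM, SD, n = 3 each). The log2 difference was 0.11, with a 95% interval of -0.96 to 1.18 without the block and -0.18 to 0.39 with it, and limma adjusted p values of 0.99998 and 0.819. Klf2 was higher in cKO in 2 pairs and lower in 1. A change of Klf2 as large as that of Klf3 was inside the unblocked interval and outside the blocked one.

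**Figure D3:**
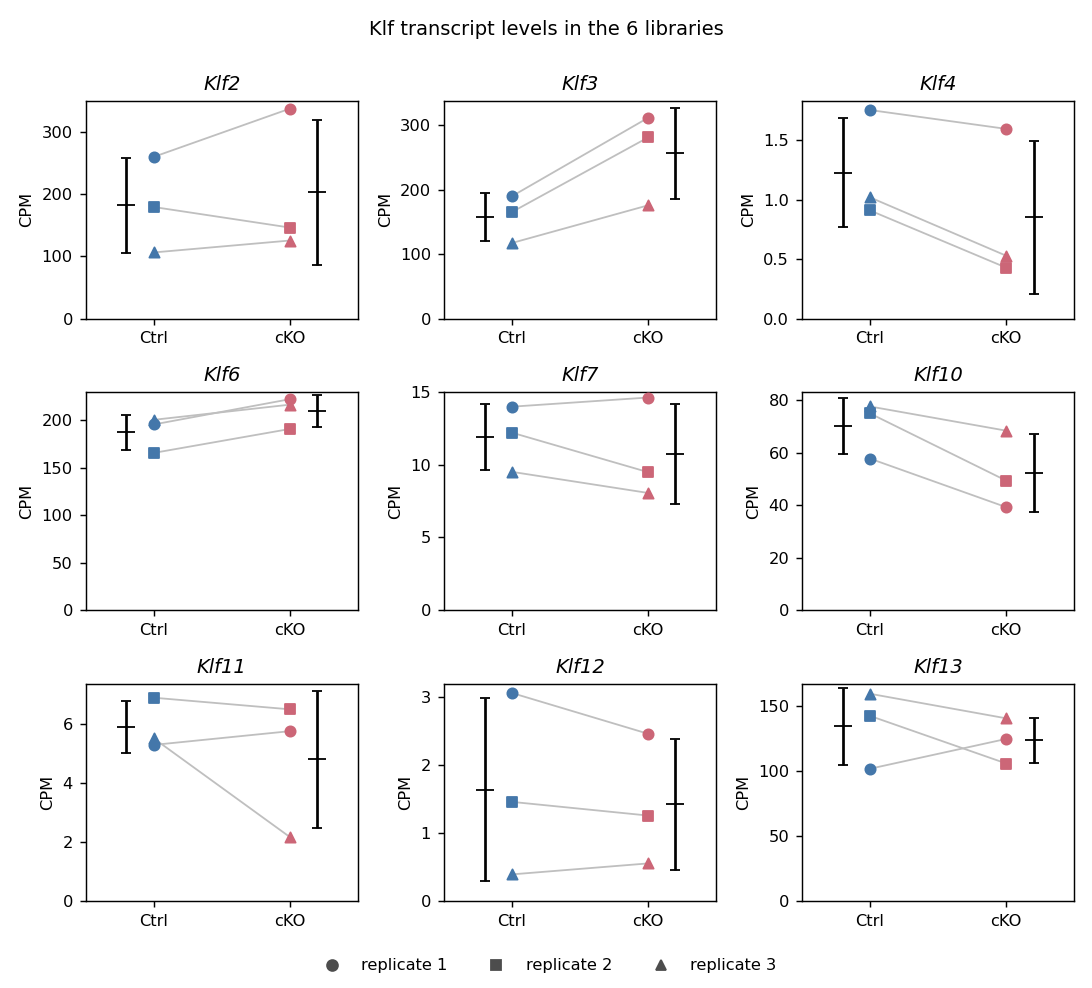
CPM of each Klf gene in the 3 Ctrl (blue) and 3 cKO (red) libraries, with symbols for the replicate number, grey lines joining same-numbered libraries, and bars for the mean and SD of each group. All 3 lines rise for Klf3 and Klf6 and all 3 fall for Klf4 and Klf10, while the groups overlap in every panel.

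The TGF-beta-inducible members Klf10 and Klf11 were lower on average in cKO, and neither passed the test. Klf10 (ENSMUSG00000037465, chromosome 15, 38294413 to 38300707, minus strand) was at 57.7, 74.9 and 77.6 CPM (Ctrl replicates 1 to 3) against 39.2, 49.3 and 68.3 CPM (cKO, same order). Each cKO library was below its same-numbered Ctrl library, at 67.9%, 65.8% and 88.1% of it, but cKO replicate 3 exceeded Ctrl replicate 1. The means were 70.1 ± 10.8 and 52.3 ± 14.8 CPM (SD, n = 3 each), a log2 difference of -0.44. Its 95% interval was -0.96 to 0.078 without the block (limma adjusted p 0.996) and -0.70 to -0.18 with it (0.101). Blocked within replicates 1 and 2 alone, an alternative added after the data were seen, the difference was -0.57 and the limma adjusted p 0.000346. That fit has 1 residual degree of freedom per gene and called 5.23% of all genes. It rests on the replicate numbers alone, because how libraries 1 and 2 pair could not be decided from the values.

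Klf11 (ENSMUSG00000020653, chromosome 12, 24651371 to 24662774, plus strand) was at 5.29, 6.89 and 5.51 CPM in Ctrl against 5.76, 6.50 and 2.17 CPM in cKO. The library cKO replicate 3 alone was low, and the other 5 libraries overlapped. The log2 difference was -0.34, with a blocked 95% interval of -0.88 to 0.21 and limma adjusted p values of 0.99998 without and 0.673 with the block. In replicates 1 and 2 it was 0.014, so that the sign rests on replicate 3.

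Klf6 and Klf13, the other abundant members, did not pass the test. Klf6 (ENSMUSG00000000078, chromosome 13, 5861489 to 5870393, plus strand) was the steadiest, at 196, 166 and 201 CPM in Ctrl against 222, 191 and 217 CPM in cKO. It was higher in cKO in all 3 pairs, at 114%, 115% and 108% of the paired Ctrl value, and the groups overlapped. The log2 difference was 0.17, with a blocked 95% interval of -0.009 to 0.34 and limma adjusted p values of 0.99998 without and 0.429 with the block. Klf13 (ENSMUSG00000052040, chromosome 7, 63886347 to 63938915, minus strand) was at 102, 143 and 159.5 CPM in Ctrl against 125, 106 and 141 CPM in cKO, higher in 1 pair and lower in 2. Its log2 difference was -0.11, with a blocked 95% interval of -0.40 to 0.19 and a blocked limma adjusted p of 0.828.

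Klf7, Klf4 and Klf12 did not pass either. Klf7 (ENSMUSG00000025959, chromosome 1, 64029447 to 64122282, minus strand) was at 14.0, 12.2 and 9.52 CPM in Ctrl against 14.6, 9.49 and 8.06 CPM in cKO, with a log2 difference of -0.16 and a blocked limma adjusted p of 0.774. Of its 75-base transcript stretches 37.6% are shared with Gm26649, a transcript on the other strand, so its reads are uncertain. Klf4 (ENSMUSG00000003032, chromosome 4, 55527143 to 55532466, minus strand) was at 1.75, 0.910 and 1.02 CPM in Ctrl against 1.60, 0.428 and 0.529 CPM in cKO, from 18 to 59 reads a library. It was lower in cKO in all 3 pairs, with a log2 difference of -0.30 and a blocked limma adjusted p of 0.539.

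Klf12 (ENSMUSG00000072294, chromosome 14, 99874486 to 100149764, minus strand), a CtBP-recruiting repressor like Klf3, was at 3.06, 1.46 and 0.397 CPM in Ctrl against 2.46, 1.26 and 0.558 CPM in cKO. The highest Ctrl library was 7.72 times the lowest, and the groups overlapped (log2 difference -0.07, blocked limma adjusted p 0.926). Over the 9 genes, 4 had the same direction in all 3 pairs, Klf3 and Klf6 higher and Klf4 and Klf10 lower, against 30.0% of all genes tested.

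**Figure D4:**
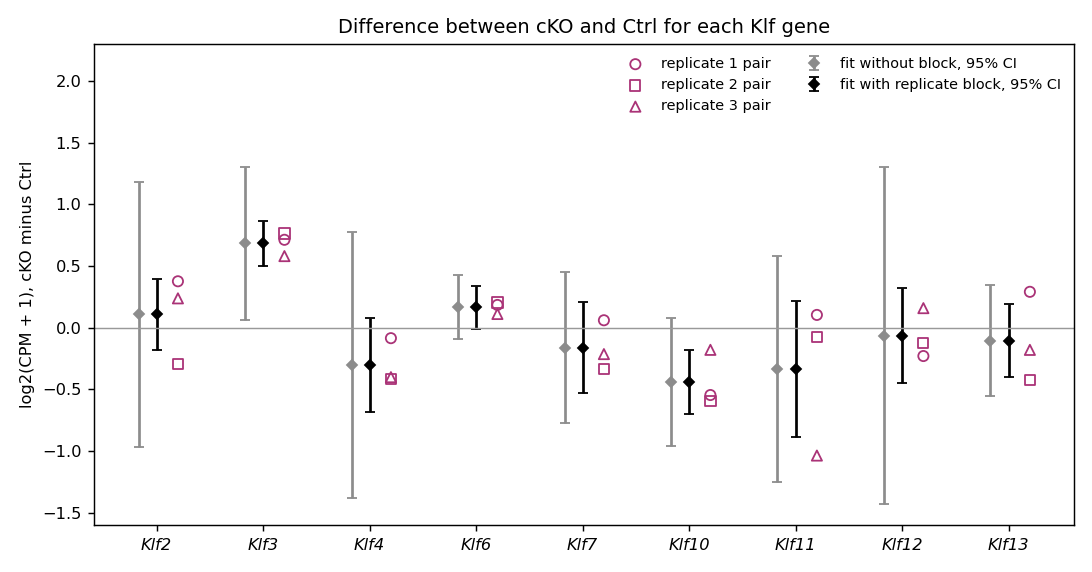
Difference in log2(CPM + 1), cKO minus Ctrl, for each Klf gene: the fitted value with its 95% confidence interval (CI) without (grey) and with (black) the replicate block, and the difference in each same-numbered pair (open symbols). The blocked interval excludes 0 for Klf3, at 0.50 to 0.87, and for Klf10, at -0.70 to -0.18, whose adjusted p was 0.101.

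The genes whose pattern over the 6 libraries was most like that of Klf3, by Pearson correlation of log2(CPM + 1) among genes averaging 5 CPM or more, were Sytl3 (r = 0.996), Arhgap26 (0.994) and Gbp5 (0.992). These libraries share the replicate structure described above, so the correlations are descriptive. All of these genes were higher in cKO on average, by 0.52, 0.50 and 0.55 on the log2(CPM + 1) scale. That follows from picking them by likeness to Klf3 over the same libraries. Klf10 was most like Tnfrsf1b (r = 0.991), Nup37 (0.989) and Mbtps1 (0.984), and Klf6 most like Slc25a51 (0.983), Rpp30 (0.970) and Mif4gd (0.965).

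Of the other family genes that bind the same elements, Klf8, Klf9 and Klf16 were tested. Without or with the block 0 were called, against 0.663% and 2.87% of all genes tested. At an unadjusted limma p under 0.05 there were 0 in either fit, against 6.02% and 12.6%. Klf17 was below the filter, and Klf1, Klf5, Klf14 and Klf15 were not among the 17985 genes listed. Klf9 was at 7.76, 15.2 and 8.37 CPM in Ctrl against 16.2, 12.6 and 10.2 CPM in cKO, and Klf16 at 13.7, 12.5 and 11.8 CPM in Ctrl against 16.3, 8.54 and 12.5 CPM in cKO. For the related SP factors Sp1, Sp2, Sp3 and Sp4, which bind GC boxes, the log2 differences ran from -0.07 to 0.085. In either fit 0 of 4 were called, against the same shares of all genes tested. Sp3 was the highest of these SP factors by mean CPM, at 129 ± 9.07 CPM in Ctrl against 137 ± 16.1 CPM in cKO (SD, n = 3 each).

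Of 5 circulation genes known as Klf2 targets (S1pr1, S1pr4, S1pr5, Itgb7 and Ccr7), 1 was called, S1pr5, higher without and with the block, against 0.663% and 2.87% of all genes tested. The median log2 difference of the list was 0.088, against -0.04 for all genes tested. S1pr5 encodes a receptor for sphingosine-1-phosphate and rose from 9.45, 6.53 and 6.08 CPM in Ctrl to 50.1, 38.6 and 22.8 CPM in cKO, by 2.14 on the log2(CPM + 1) scale (limma adjusted p 0.0410, and 0.000280 with the block). Every cKO library was above every Ctrl library. When single libraries were dropped in turn, S1pr5 passed in 1 of 6 limma fits (adjusted p from 0.0145 to 0.218). The egress receptor gene S1pr1, in contrast, was at 33.9, 23.8 and 17.8 CPM in Ctrl against 24.5, 18.3 and 22.0 CPM in cKO, with a log2 difference of -0.18 and a blocked limma adjusted p of 0.764. Itgb7, an integrin chain for gut homing, had a log2 difference of -0.21 and a blocked limma adjusted p of 0.246.

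Upstream of Klf2, the forkhead factor Foxo1 and the ERK5 kinase pathway that acts through MEF2 factors are known activators. Of Foxo1, Foxo3, Foxo4, Mapk7, Map2k5, Mef2a, Mef2c and Mef2d, 0 of 8 were called without or with the block, against 0.663% and 2.87% of all genes tested. The median log2 difference of the list was 0.009, against -0.04 for all genes tested. Mapk7, which encodes ERK5, was at 29.0, 31.7 and 33.99 CPM in Ctrl against 37.9, 38.7 and 34.2 CPM in cKO. These groups did not overlap, yet the log2 difference of 0.22 had limma adjusted p values of 0.995 without and 0.526 with the block. Foxo1 was at 109, 105 and 94.0 CPM in Ctrl against 123, 105 and 84.6 CPM in cKO.

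Genes for partner proteins of the family gave no call. Of the 8 tested genes Ctbp1, Ctbp2, Sin3a, Sin3b, Hdac1, Hdac2, Ncor1 and Wwp1, 0 were called without or with the block, against 0.663% and 2.87% of all genes tested. Their log2 differences ran from -0.11 to 0.32. The largest of these was that of Wwp1, a ubiquitin ligase that targets Klf2 protein, at 37.3, 37.9 and 26.6 CPM in Ctrl against 51.3, 47.5 and 30.8 CPM in cKO (blocked limma adjusted p 0.242). Ctbp1, the co-repressor of Klf3, was at 327 ± 22.6 CPM in Ctrl against 303 ± 19.9 CPM in cKO (SD, n = 3 each).

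Among 6 genes tied in textbooks to single members, 0 were called without the block, where 3 had an unadjusted limma p under 0.05, and 2 were called with it. The shares of all genes tested were 0.663%, 6.02% and 2.87%. Ccl5, a chemokine gene activated by Klf13, was at 196, 153 and 150.5 CPM in Ctrl against 418, 285 and 415 CPM in cKO and had a log2 difference of 1.14, with limma adjusted p values of 0.0631 without and 0.000780 with the block. Smad7, the TGF-beta feedback inhibitor that Klf10 and Klf11 repress, was at 57.2, 69.4 and 64.9 CPM in Ctrl against 41.6, 35.3 and 30.6 CPM in cKO (log2 difference -0.82, limma adjusted p 0.0795 without and 0.0138 with the block). For both genes the groups did not overlap.

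Myc, which Klf2 restrains in resting T cells, was at 344, 294 and 350.3 CPM in Ctrl against 220.2, 229 and 296 CPM in cKO, with a log2 difference of -0.41 and a blocked limma adjusted p of 0.0601. Lgals3, a gene repressed by Klf3, was at 112, 103 and 113 CPM in Ctrl against 65.6, 72.1 and 111 CPM in cKO. Its log2 difference was -0.43 with a blocked limma adjusted p of 0.195, and cKO replicate 3 lay within the Ctrl range.

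Of the 14 TGF-beta receptor, SMAD and feedback genes, 5 were called without the block and 7 with it, against 0.663% and 2.87% of all genes tested. The called genes were all lower. Over the whole list 9 genes were lower and 5 higher, with a median log2 difference of -0.52. Those called without the block were Tgfbr2, Tgfbr3, Ski, Skil and Pmepa1, and the block added Smad7 and Smurf2. Smad2 was at 68.0, 67.8 and 68.7 CPM in Ctrl against 83.9, 74.5 and 87.7 CPM in cKO (log2 difference 0.26). Smad3 was at 120, 140 and 113 CPM in Ctrl against 145, 166 and 146 CPM in cKO (0.30). Both were higher in every cKO library than in any Ctrl library, but neither was called (blocked limma adjusted p 0.275 and 0.134). Tgfbr2 is the targeted gene, so its lower level is not an independent result. Its mean in cKO was 0.610 times that in Ctrl, and how complete the deletion was in these cells was not tested. With single libraries left out in turn and no block, Skil passed in 6 of 6 limma fits, Tgfbr3 in 3, Ski in 2, Tgfbr2 in 1 and Pmepa1 in 0. The unblocked call of Tgfbr2 was also lost with TMM scaling (limma adjusted p 0.0947), DESeq2-type size factors (0.0522) and edgeR (0.0687). The log2 differences of the 5 genes called without the block ran from -3.24 for Tgfbr3, a co-receptor, to -0.71 for Tgfbr2. Skil, a SMAD co-repressor that TGF-beta induces, had a log2 difference of -2.31 (limma adjusted p 0.00241), against -0.44 for Klf10, which TGF-beta also induces.

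Klf2 and Klf4 are tied to T cell quiescence, whereas Klf6 and Klf10 belong to the genes that cells switch on early after stimulation. A list of immediate early and stress genes was therefore read beside the Klf genes. Of its 16 tested members 15 were higher in cKO, against 6426 of all 15691 genes tested. The median log2 difference was 0.22, against -0.04 for all genes tested. Without the block or with it 0 of the 16 were called, against 0.663% and 2.87% of all genes. An unadjusted limma p under 0.05 was found for 0 and 7 of them, against 6.02% and 12.6%. The summed level was 1781 to 2367 CPM in Ctrl against 2089 to 2459 CPM in cKO. Dusp1, at 48.9, 47.6 and 90.1 CPM in Ctrl against 64.3, 84.3 and 116 CPM in cKO, had the smallest blocked adjusted p among them, 0.0545 by limma. The part of this list in the Klf values was not tested.

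Markers of other cells were low. The summed CPM of B cell markers was 4.32 to 15.2 in Ctrl and 3.14 to 16.1 in cKO, that of myeloid markers 0.774 to 8.56 and 1.56 to 8.46, that of double-positive thymocyte markers 3.51 to 13.9 and 5.20 to 17.6, and that of epithelial and stromal markers 5.68 to 10.5 and 3.85 to 11.0. The endothelial list summed to 30.7 to 39.6 CPM in Ctrl and 59.6 to 73.9 CPM in cKO, without overlap, and most of each sum was Pecam1, which T cells also express. Pecam1 was called higher without the block (limma adjusted p 0.0423) and with it (0.00136), but in 0 of the 6 unblocked fits without a single library (0.0536 to 0.225). Kdr was at 3.74 to 7.21 CPM and Vwf at 3.93 to 7.93 CPM in replicates 1 and 2, and in the replicate 3 libraries Kdr was listed at 0 and Vwf at 0.0567 or 0 CPM. Naive and recirculating T cells are known for high Klf2 and Klf3. Of 5 of their markers (Ccr7, Lef1, Tcf7, Il7r and S1pr1) 0 were called without the block, where 1 had an unadjusted limma p under 0.05. With the block 1 was called, Tcf7, higher. The shares of all genes tested were 0.663%, 6.02% and 2.87%. The summed level of these markers was 1199 to 1649.9 CPM in Ctrl against 1333 to 1567 CPM in cKO. The part of such cells in the Klf3 difference was not tested.

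**Figure D5:**
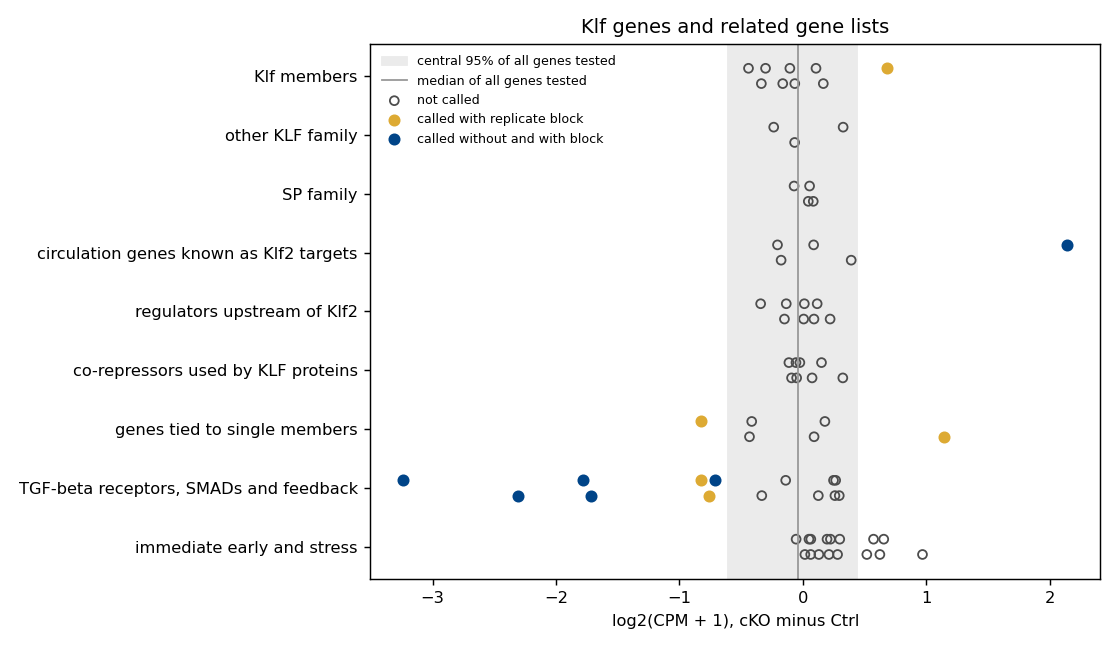
Difference in log2(CPM + 1), cKO minus Ctrl, for the 9 Klf genes and for 8 related gene lists, with 1 point per gene and the vertical position within a row used only to separate points. The shaded band holds the central 95% of all genes tested. Klf3 is called with the block only, S1pr5 is called without and with it, and the called TGF-beta genes all lie at negative values.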

How the data were processed

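RNA-seq of 3 Ctrl and 3 cKO libraries of thymic iNKT1 cells was used, with groups and replicate numbers from the sample titles. The columns named WT and KO were taken as Ctrl and cKO, the only 2 groups. Per the submitters' processing notes, the tools were Trimmomatic 0.33, STAR 2.5.2, HTSeq 0.6.1 and edgeR, with build mm10. The per-library values were deposited as CPM, of which 100% were whole multiples of 1 read within 0.001, so reads were recovered. Per the file headers the authors also give log2 fold changes, a likelihood-ratio score, p-values and adjusted p-values.

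The members and gene lists were chosen with earlier results of these data known. All members were named. One item of the lists is not reported here, and list counts leave it out. Of each list, up to 4 genes by smallest p and those called were named, beside others chosen after their values were seen. Genes averaging 1 CPM or more were tested with limma 3.58.1 (R 4.3.3) on log2(CPM + 1), with a mean-variance trend, robust moderation, group as the only term and an adjusted p threshold of 0.05. On this scale the change of low genes is understated. Alternatives were the replicate block, other scalings, pseudocounts and filters, edgeR 4.0.16, DESeq2 1.42.0 and leaving out libraries. The scripts were tested on simulated data. Intervals cover the spread between libraries, and depth covers counting error only. Exact permutation of 3 against 3 libraries gives no two-sided p under 0.1 and was not used.

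The labels do not say what a replicate number shares. Deviations from the group means correlated at 0.855, 0.687 and 0.924 between same-numbered libraries 1, 2 and 3, all over 0.1, so the numbers were taken to pair the libraries. Ctrl replicate 2 correlated more with cKO replicate 1 (0.718). Ctrl replicate 1 and cKO replicate 2 correlated at 0.578, also over 0.1. Both replicate 3 libraries stood apart from the rest, so this rule could not decide how libraries 1 and 2 pair. For these libraries the blocked fits rest on the replicate numbers alone.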

Additional observations from a re-analysis of the deposited data

How the results depend on the processing

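Among all genes tested, limma called 104, 32 higher and 72 lower. The replicate block called 451 (194 higher, 257 lower), TMM scaling with the block 514 (265 higher, 249 lower), edgeR 40 (11 higher) and 469 with the block, DESeq2 552 (279 higher) and 706 with the block, and replicates 1 and 2 alone 296. Leaving out single libraries gave 14 (without Ctrl replicate 2) to 97 (without cKO replicate 3). Blocked fits without replicate 1, 2 or 3, added with blocked DESeq2 after the data were seen, called 345, 426 and 897 genes. Of the Klf genes, 1 was called, Klf3, with the replicate block, TMM scaling with the block, blocked edgeR, DESeq2 with or without the block, replicates 1 and 2 alone, and the block without replicate 1 or 2. Without replicate 3 the block called 2, Klf3 and Klf10. The block changed no other Klf call. Without the block, no fit that left out a single library called a Klf gene, and the log2 difference of Klf3 was 0.49 to 0.93 there. Signs changed for Klf2 (-0.33 to 0.41 over single libraries left out, -0.028 in the block without replicate 1), Klf7 (-0.39 to 0.0036), Klf11 (-0.57 to 0.052, and 0.014 in replicates 1 and 2 with or without the block), Klf12 (-0.46 to 0.31, 0.0036 with blocked edgeR and 0.016 with blocked DESeq2) and Klf13 (-0.29 to 0.029, and 0.055 in the block without replicate 2). The cause was not tested. TMM scaling moved the median of all genes by 0.061 on the log2 scale. DESeq2 gave no adjusted p for Klf4 and Klf12, which had 18 to 103 reads a library. Klf12 had its fewest reads, 21 and 38, in the replicate 3 libraries, the deepest of each group.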

Other observations

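Klf2 was highest in replicate 1 of both groups, and 3 of the 16 tested immediate early and stress genes, Jun, Hspa1a and Hspa1b, had their highest values in the same libraries. Jun was at 4.25, 3.38 and 2.38 CPM in Ctrl against 11.1, 4.02 and 3.20 CPM in cKO. Hspa1a was at 7.97, 1.82 and 0.982 CPM (Ctrl replicates 1 to 3) against 16.2, 3.50 and 1.38 CPM (cKO, same order), and Hspa1b at 32.8, 5.13 and 5.87 CPM in Ctrl against 48.3, 7.90 and 4.83 CPM in cKO. These genes were singled out after their values were seen, and the other 13 were not highest in replicate 1 of both groups. For example, Jund was lowest in replicate 1 of Ctrl, at 321, 420.0 and 476 CPM, and Dusp1 was lowest in replicate 1 of cKO.

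The 9 Klf genes together took 829, 749 and 678 CPM in Ctrl replicates 1 to 3 and 1060.1, 791 and 738 CPM (cKO, same order). Klf3 made up 22.9%, 22.0% and 17.3% of that sum in Ctrl and 29.4%, 35.5% and 23.8% in cKO.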
